A study of Mus musculus with 6 samples.

Results

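Voltage-gated calcium channels open when a cell membrane depolarizes and let calcium into the cell. Each channel is built around a pore-forming alpha1 subunit, which sets its type, and most types also carry a cytoplasmic beta subunit and an extracellular alpha2-delta subunit that help bring the pore to the membrane. In sensory neurons of the dorsal root ganglion (DRG), N-type and P/Q-type channels admit the calcium that triggers transmitter release, L-type channels couple activity to gene expression, and T-type channels open near the resting potential and shape excitability. The RNA levels of 10 such genes were followed, 7 pore-forming (Cacna1a, Cacna1b, Cacna1c, Cacna1d, Cacna1e, Cacna1h and Cacna1i) and 3 alpha2-delta (Cacna2d1, Cacna2d2 and Cacna2d3), out of 24062 genes in the count tables. Their rows were taken from the tables by symbol, and no measured value entered the rule, although the set was proposed with earlier results of these data known.

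RNA was sequenced in 6 libraries from mice on a mixed C57BL/6 and I129 background. The aim was to ask which genes respond to loss of the transcription factors Runx1 and Runx3 in a mouse model of plexiform neurofibroma. The 3 control libraries came from Nf1fl/fl;DhhCre mice, in which Cre driven by the desert hedgehog promoter removes the neurofibromin gene in the Schwann cell lineage. The other libraries came from mice that were floxed for Runx1 and Runx3 as well and are called labelled double knockout (DKO) here. Their genotype field names Rx1flfl;Rx3fl/fl;DhhCre, and the study's protocol adds the Nf1fl/fl allele that the controls also carry. The tissue field reads dorsal root ganglion for the controls and neurofibroma tumor for the labelled DKO mice. The protocol text instead names DRG/tumors for both genotypes, and elsewhere the study calls the control tissue tumors. A difference of tissue and a difference of genotype therefore cannot be told apart. Sensory neuron markers, given further on, were lower in the libraries labelled ganglion than in those labelled tumor. No ages were given for these mice in the sources used here. This Cre acts in the Schwann cell lineage, so neurons, muscle and other host cells of the tissue are not meant to lose the floxed alleles.

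Each library held between 12439296 and 16682194 counted reads. Runx1 was at 131, 141 and 172 CPM in the controls (CPM, the count of a gene as a rate of the effective library size) and at 84.0, 78.9 and 185 CPM in labelled DKO replicates 1, 2 and 3. Labelled DKO replicate 3 therefore did not show less Runx1 than the controls, and the main results below are also given without it. Runx3 was at 19.9, 15.1 and 29.9 CPM against 13.5, 10.3 and 12.1 CPM. The labels also put labelled DKO replicate 3 in a sequencing run of its own, apart from the other 5 libraries. Sample titles and column headers disagree on some mouse numbers, so that run may instead be that of labelled DKO replicate 2. Skeletal muscle genes set apart control replicate 2 and labelled DKO replicate 2, where 10 muscle markers summed to 2659 and 11593 CPM. In the other 4 libraries their sum lay between 6.03 and 72.2 CPM.

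Only short stretches upstream of the channel genes are shown, since the study concerns RUNX proteins and their core motif can be searched there. RefSeq start sites on GRCm38.p6 were found for 8 of the 10 genes, giving 11 promoters, and the 250 bases before each start were searched on both strands for TGTGGT and TGCGGT. A match to either was present in 3 of the 11 promoters, beside 18.6% of 32851 mouse promoters. The 3 matches are printed 5′ to 3′ on the strand of the gene, all of which lie on the minus strand, with the motif or its reverse complement in capitals.
Cacna1b, chr2:24763153-24763182: ggccgcggctcgggTGCGGTagcagctggc
Cacna1c, upstream promoter, chr6:119196464-119196493: cgcataggtctgACCACAgcagcaaagtca
Cacna1c, downstream promoter, chr6:118758029-118758058: ccttcattggaaACCGCAccctcctgaatt
The Cacna1b match begins 16 bases before the start, and both Cacna1c matches begin 72 bases before theirs. The upstream windows of Cacna2d2 and Cacna2d3 held no match to these letters. GGGCGG, the letters of the GC box, occurred 3 times upstream of Cacna1b, 1 time upstream of Cacna2d2 and 4 times upstream of Cacna2d3, and was present in 32.7% of all promoters. The GC content of these windows was 72.0%, 74.4% and 80.0%, beside a median of 52.4% over all promoters. A match of letters is not evidence of binding, and no binding data were used.

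Of the 10 channel genes, 3 rose in the labelled DKO libraries, namely Cacna1b, Cacna2d2 and Cacna2d3, and 0 fell. A change was called where the Benjamini-Hochberg adjusted p of limma-voom was below 0.05 and the change exceeded 2-fold, the thresholds the study used. By limma-voom 0 of the 10 were lower at an unadjusted p below 0.05 as well, and edgeR and DESeq2 called 0 lower. Over all 15652 genes tested, 8.03% were called higher and 5.36% lower. All 10 genes passed the filter on low counts, but Cacna1i passed it only through the labelled DKO libraries. Cacna1a and Cacna1c also had an adjusted p below 0.05 but stayed short of 2-fold. Every labelled DKO library lay above every control library for 7 genes, or 6 of the 9 that leave out Cacna1i, beside 21.8% of all genes tested. The median log2 fold change of the 10 genes was 0.95, or 0.91 without Cacna1i, and that of all genes tested was 0.02. Without labelled DKO replicate 3 the 3 called genes were still called and the median over the 10 genes was 0.74. Without control replicate 1 the count of channel genes called by limma-voom was 0, with 5 at an unadjusted p below 0.05 and more than 2-fold. The 5 include Cacna1i, whose pass is no support for a rise. On the same libraries edgeR called 0 channel genes and DESeq2 4. Over all genes, limma-voom called 362, edgeR 508 and DESeq2 2516 there. The share of all genes at the unadjusted threshold is not given. Of the 3 calls, 2 were kept without control replicate 3, without labelled DKO replicate 2, or without both muscle-rich libraries.

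**Figure D1:**
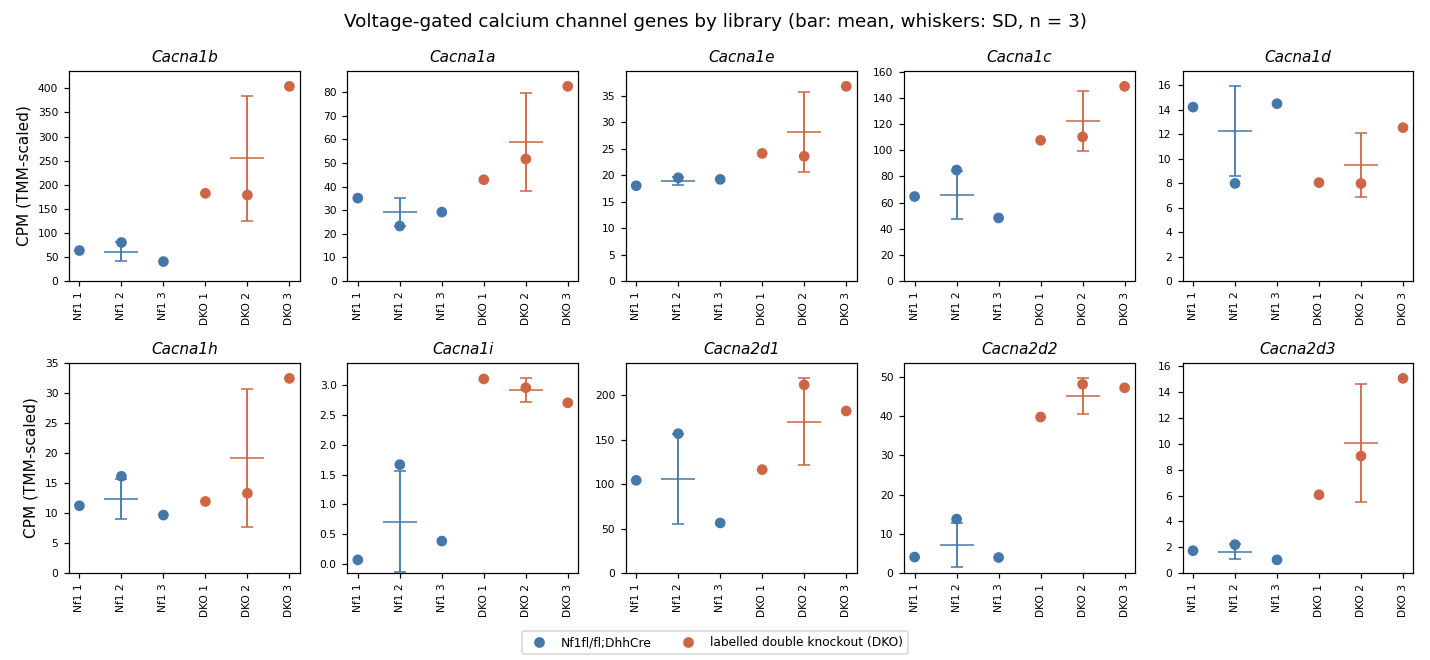
Level of each channel gene in CPM (TMM-scaled, vertical axes) in each library (horizontal axes), 3 Nf1fl/fl;DhhCre (blue) and 3 labelled double knockout (DKO, orange), with bars at the mean and whiskers of 1 SD. Cacna2d2 lay between 3.98 and 13.8 CPM in the controls and between 39.8 and 48.1 CPM in the labelled DKO libraries, while the ranges of Cacna1d, Cacna1h and Cacna2d1 overlapped.

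Among the genes of presynaptic channels, Cacna1b rose and Cacna1a and Cacna1e did not pass both thresholds. Cacna1b (chr2:24603887-24763152, minus strand, GRCm38) encodes the N-type pore, the target of omega-conotoxin pain drugs. It was at 63.4, 80.1 and 40.5 CPM in control replicates 1 to 3 and at 182, 179 and 404 CPM in labelled DKO replicates 1 to 3. All labelled DKO libraries were higher than all controls, and replicate 3 was the highest. Its log2 fold change was 2.003 (SE 0.38, limma-voom adjusted p = 0.0171), a 4.01-fold difference. It was 1.61 without labelled DKO replicate 3 (limma-voom adjusted p = 0.0219) and 2.45 without both muscle-rich libraries (limma-voom adjusted p = 0.0223). Leaving out control replicate 1 ended the call (log2 fold change 2.08, limma-voom adjusted p = 0.0597).

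Cacna1a (chr8:84388440-84640246, plus strand) encodes the P/Q-type pore, which serves fast transmitter release at many central synapses and the neuromuscular junction. Its levels were 35.1, 23.3 and 29.2 CPM in the controls and 42.9, 51.6 and 82.4 CPM in the labelled DKO libraries. The groups did not overlap, although the highest control and the lowest labelled DKO library were close. The log2 fold change of 0.996 (SE 0.28, limma-voom adjusted p = 0.0468) corresponded to 1.99-fold, just short of the 2-fold threshold. With edgeR or DESeq2 in place of limma-voom, or without labelled DKO replicate 1 (1.24, limma-voom adjusted p = 0.0265), it passed both thresholds, and without labelled DKO replicate 3 it was 0.72 (limma-voom adjusted p = 0.0790).

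Cacna1e (chr1:154390731-154884501, minus strand), the R-type pore, was at 18.0, 19.5 and 19.2 CPM in the controls and at 24.1, 23.6 and 36.8 CPM in the labelled DKO libraries. The controls lay close together and below all labelled DKO libraries. Its log2 fold change was 0.55 (SE 0.21, limma-voom adjusted p = 0.112), with a 95% interval from 0.05 to 1.06. Without labelled DKO replicate 3 it was 0.34 (limma-voom adjusted p = 0.225).

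Neither L-type pore was called. Cacna1c (chr6:118587240-119196418, minus strand) encodes the L-type pore of heart, smooth muscle and neurons. It was at 64.6, 84.8 and 48.2 CPM in the controls and at 108, 110 and 149 CPM in the labelled DKO libraries, so that the groups did not overlap. At a log2 fold change of 0.91 (SE 0.23, limma-voom adjusted p = 0.0350) the difference was below 2-fold. It was 0.76 without labelled DKO replicate 3 (limma-voom adjusted p = 0.0862) and 1.204 without both muscle-rich libraries, an alternative chosen after seeing the data, where it passed both thresholds (limma-voom adjusted p = 0.0279). It also passed both without control replicate 2 (1.16, limma-voom adjusted p = 0.0138) and without labelled DKO replicate 1 (1.04, limma-voom adjusted p = 0.0435).

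Cacna1d (chr14:30039939-30491455, minus strand), an L-type pore that opens at more negative potentials and is known from hair cells and the sinoatrial node, was the only channel gene with a negative value. It was at 14.2, 7.98 and 14.5 CPM in the controls and at 8.05, 7.98 and 12.5 CPM in the labelled DKO libraries. The groups overlapped, since control replicate 2 was as low as labelled DKO replicate 2. The log2 fold change was -0.31 (SE 0.33, limma-voom adjusted p = 0.545), with a 95% interval from -1.07 to 0.46, and was -0.54 without labelled DKO replicate 3. Over the fits that left out 1 library it lay between -0.55 (without control replicate 2) and -0.11 (without control replicate 3). Exons of Chdh on the other strand cover 4.67% of its exonic length, and whether reads were assigned by strand is not given in the sources used here.

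The T-type genes were low, and neither was called. Cacna1h (chr17:25374285-25433783, minus strand) encodes the main T-type pore of mechanoreceptive and nociceptive DRG neurons. Its levels were 11.2, 16.1 and 9.69 CPM in the controls and 12.0, 13.3 and 32.5 CPM in the labelled DKO libraries. Only labelled DKO replicate 3 stood above the controls. The log2 fold change was 0.55 (SE 0.42, limma-voom adjusted p = 0.396) and 0.06 without that library. Exons of Tpsg1 on the other strand cover 1.62% of its exonic length.

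Cacna1i (chr15:80287238-80398279, plus strand), a slowly inactivating T-type pore best known from the thalamus, was counted 1, 28 and 6 times in the controls and 39, 36 and 41 times in the labelled DKO libraries. These counts correspond to 0.0694, 1.67 and 0.385 CPM against 3.11, 2.96 and 2.71 CPM. The labelled DKO libraries were close together and above all controls, which were spread widely. Its log2 fold change of 2.74 (SE 0.83, limma-voom adjusted p = 0.0589) had a 95% interval from 0.79 to 4.70, and it was 2.80 without labelled DKO replicate 3 (limma-voom adjusted p = 0.101). Cacna1i passed both thresholds with sample quality weights (3.67, limma-voom adjusted p = 0.0169) and without control replicate 2 (3.84, limma-voom adjusted p = 0.0301), and was at 1.80 without control replicate 1 (limma-voom adjusted p = 0.163). Cacna1i reached the filter's 0.691 CPM in 1 of 3 controls, so it was tested only through the labelled DKO libraries. These passes are therefore no support for a rise.

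Of the alpha2-delta genes, Cacna2d2 and Cacna2d3 rose and Cacna2d1 was not called. Cacna2d1 (chr5:15934691-16374511, plus strand) encodes the alpha2-delta subunit of skeletal muscle and of injured DRG neurons and is a target of gabapentin. It was at 104, 157 and 56.4 CPM in the controls and at 116, 212 and 182 CPM in the labelled DKO libraries. The groups overlapped, and the muscle-rich library was the highest of each group. Its log2 fold change was 0.76 (SE 0.38, limma-voom adjusted p = 0.202), with a 95% interval from -0.14 to 1.65. Without both muscle-rich libraries it was 0.95 (limma-voom adjusted p = 0.116), and without labelled DKO replicate 3 it was 0.69 (limma-voom adjusted p = 0.352). Over the fits that left out 1 library it lay between 0.40 (without control replicate 3) and 1.15 (without control replicate 2).

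Cacna2d2 (chr9:107399612-107529343, plus strand), whose loss causes the ducky form of ataxia and epilepsy in mice, was higher in every labelled DKO library than in any control. Its levels were 4.09, 13.8 and 3.98 CPM in the controls and 39.8, 48.1 and 47.2 CPM in the labelled DKO libraries. The groups were far apart, with control replicate 2 the nearest to the other group. Its log2 fold change was 2.84 (SE 0.41, limma-voom adjusted p = 0.0100), a 7.18-fold difference. It was 2.81 without labelled DKO replicate 3 (limma-voom adjusted p = 0.0214) and 3.44 without both muscle-rich libraries (limma-voom adjusted p = 0.0157). The call was lost without control replicate 1 (log2 fold change 2.60, limma-voom adjusted p = 0.0518).

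Cacna2d3 (chr14:28904943-29721864, minus strand), which has been linked to heat pain sensitivity from flies to humans, was counted 25, 37 and 16 times in the controls and 76, 110 and 228 times in the labelled DKO libraries. On the CPM scale these were 1.73, 2.20 and 1.03 against 6.06, 9.05 and 15.1. All labelled DKO libraries lay above all controls, and they differed among themselves more than the controls did. The log2 fold change was 2.57 (SE 0.56, limma-voom adjusted p = 0.0229), a 5.95-fold difference, and was 2.20 without labelled DKO replicate 3 (limma-voom adjusted p = 0.0322). The call was lost without control replicate 1 (limma-voom adjusted p = 0.0782), control replicate 3 (limma-voom adjusted p = 0.0689) or labelled DKO replicate 2 (limma-voom adjusted p = 0.0576), and without both muscle-rich libraries (limma-voom adjusted p = 0.0596). In each of these fits the log2 fold change was 2.31 or more.

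The make-up of the channel pool was compared by dividing CPM by the exonic length of each gene, which allows levels of different genes to be set side by side. Shares within a pool depend on each other, so a higher share of some genes means lower shares of others. Among the 3 alpha2-delta genes and Cacna2d4, Cacna2d1 held 91.1%, 86.0% and 83.6% of the pool in the controls and 59.3%, 70.3% and 65.3% in the labelled DKO libraries. The share of Cacna2d2 was 8.86% ± 3.12 (SD, n = 3) in the controls and 27.7% ± 3.52 (SD, n = 3) in the labelled DKO libraries. That of Cacna2d3 was 2.01% ± 0.253 (SD, n = 3) and 5.45% ± 1.93 (SD, n = 3). For each of these 3 genes the groups did not overlap, and the exact two-sided permutation test gave p = 0.1, the smallest value that 3 against 3 libraries allow. Cacna2d1 thus remained the most abundant alpha2-delta RNA per length in every library.

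Among the 7 pore-forming genes, Cacna1b held the largest share in every library. It was 41.1%, 46.5% and 34.4% in the controls and 60.5%, 58.1% and 66.7% in the labelled DKO libraries (exact permutation p = 0.1, n = 3 against 3). With Cacna1f, Cacna1g and Cacna1s added to the pool its shares were 39.4%, 36.4% and 32.8% against 58.6%, 39.9% and 66.0%, so that the groups nearly touched. Cacna1s alone held 29.8% of that wider pool in the muscle-rich labelled DKO library. Shares of Cacna1c were 20.7% ± 2.13 (SD, n = 3) and 15.02% ± 3.04 (SD, n = 3), although its CPM was higher in the labelled DKO libraries. Those of Cacna1d were 6.87% ± 3.04 (SD, n = 3) and 1.93% ± 0.258 (SD, n = 3). Mean shares of Cacna1e were 5.17% and 2.86%, and those of Cacna1h 8.45% and 4.64%. Each of these genes had exact permutation p = 0.1. Cacna1a held 17.7% ± 5.23 (SD, n = 3) in the controls and 12.96% ± 1.48 (SD, n = 3) in the labelled DKO libraries, and its groups overlapped (exact permutation p = 0.4). In order of mean share, Cacna1b was followed by Cacna1c and Cacna1a, which overlapped in both groups, and Cacna1i was last with 0.450% and 0.821%. Without labelled DKO replicate 3 the share of Cacna1b differed by 18.6 percentage points between the groups, in place of 21.1, and that of Cacna2d2 by 19.4, in place of 18.8.

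**Figure D2:**
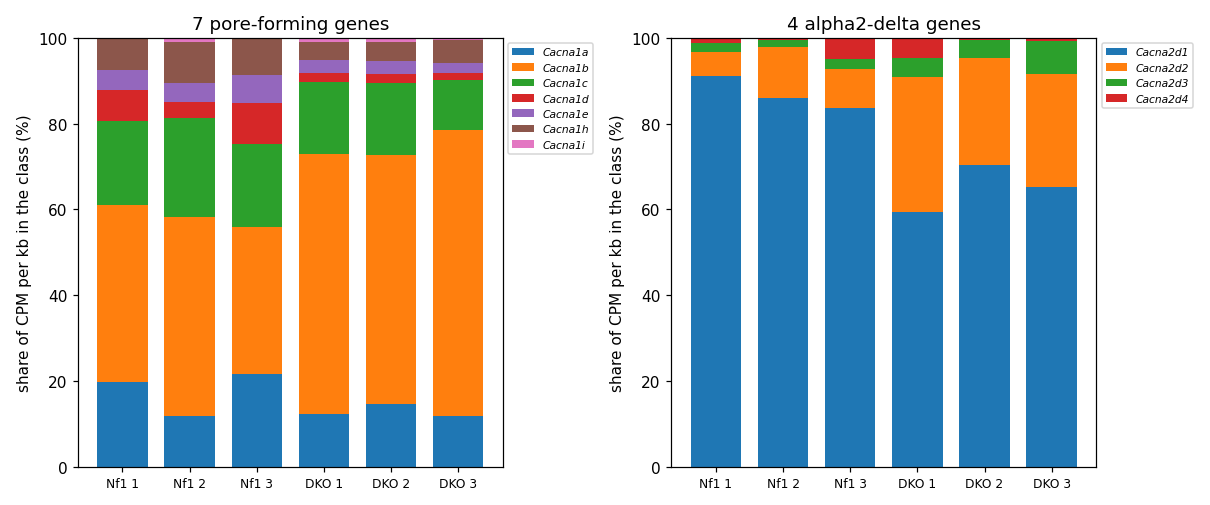
Share of each gene in the summed CPM per kilobase of exon (vertical axes, %) in each library (horizontal axes), for the 7 pore-forming genes on the left and the 4 alpha2-delta genes on the right. Cacna1b took 34.4% to 46.5% of the pore-forming pool in the controls and 58.1% to 66.7% in the labelled DKO libraries, and Cacna2d1 took at least 83.6% of the alpha2-delta pool in the controls and at most 70.3% in the labelled DKO libraries.

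The remaining subunit genes showed a similar mix of called and uncalled members. Of the 4 beta subunit genes, Cacnb3 and Cacnb4 rose. Cacnb3, the partner of N-type channels in neurons, was at 17.2, 32.3 and 22.3 CPM in the controls and at 57.1, 54.8 and 111 CPM in the labelled DKO libraries (log2 fold change 1.61, SE 0.35, limma-voom adjusted p = 0.0231). Cacnb4, mutated in the lethargic mouse, was at 23.5, 56.8 and 21.8 CPM against 103, 122 and 220 CPM (log2 fold change 2.18, SE 0.43, limma-voom adjusted p = 0.0176). Neither gene overlapped between the groups, and both were called without labelled DKO replicate 3, at log2 fold changes of 1.27 and 1.85. Both calls were lost without control replicate 1 (limma-voom adjusted p = 0.0748 and 0.0672) and without control replicate 3 (limma-voom adjusted p = 0.0662 and 0.0570). Cacnb2 had a log2 fold change of 0.06 (SE 0.34), whose sign turned with the scaling, and Cacnb1, the skeletal muscle beta subunit, one of 0.91 (SE 0.39, limma-voom adjusted p = 0.142). Per length, Cacnb4 held 30.5% ± 5.73 (SD, n = 3) of the beta pool in the controls and 42.2% ± 1.74 (SD, n = 3) in the labelled DKO libraries (exact permutation p = 0.1).

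Of the other pore-forming genes, the T-type gene Cacna1g had a log2 fold change of 0.51 (SE 0.36, limma-voom adjusted p = 0.363) and the retinal L-type gene Cacna1f one of 1.96 (SE 1.29, limma-voom adjusted p = 0.324), at no more than 1.64 CPM in any library. The retinal alpha2-delta gene Cacna2d4 stood at 0.86 (SE 0.86, limma-voom adjusted p = 0.517). Leaving out 1 library moved Cacna1g between 0.28 and 0.82, Cacna1f between 0.14 and 2.89 and Cacna2d4 between 0.12 and 1.43. With edgeR or DESeq2 the log2 fold change of Cacna1f was 0.81. Of the 8 gamma subunit genes 3 were abundant enough to be tested, and Cacng2 (2.99) and Cacng7 (2.31) were called higher, both with groups that did not overlap. Cacng2 reached the filter's 0.691 CPM in 1 of 3 controls and so was tested only through its level in the labelled DKO libraries, which makes its call no support for a rise. Neither was called without control replicate 1 (limma-voom adjusted p = 0.0651 and 0.0774) or control replicate 3 (limma-voom adjusted p = 0.0548 and 0.0666), nor was Cacng7 without labelled DKO replicate 2 (limma-voom adjusted p = 0.0522). These gamma proteins are better known as partners of AMPA receptors than of calcium channels.

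**Figure D3:**
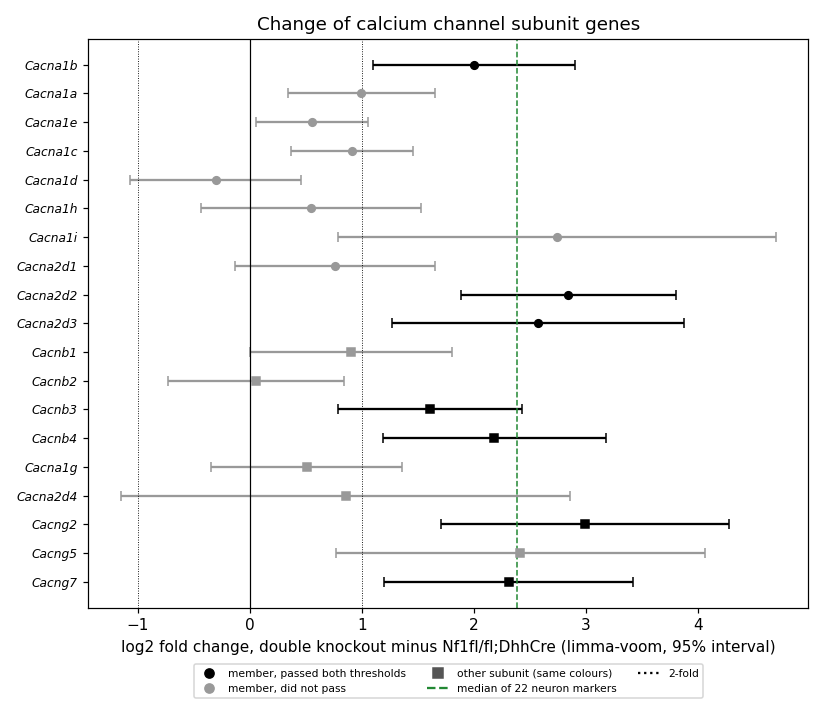
Log2 fold change of the 10 channel genes (circles) and of other subunit genes (squares), labelled double knockout minus Nf1fl/fl;DhhCre, on the horizontal axis with 95% intervals from limma-voom. Black marks genes that passed both thresholds, grey those that did not, dotted lines 2-fold and the dashed line the median of 22 neuron markers (2.38). Cacna1b, Cacna2d2, Cacna2d3, Cacnb3, Cacnb4, Cacng2 and Cacng7 are black. The intervals of Cacna1d, Cacna1h, Cacna2d1, Cacnb2, Cacna1g and Cacna2d4 span 0.

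Subunit genes of the skeletal muscle channel were highest in the muscle-rich library of each group. Cacna1s, the voltage sensor of the skeletal muscle L-type channel, was at 1.94, 28.1 and 0.770 CPM in the controls and at 1.04, 87.7 and 1.19 CPM in the labelled DKO libraries. It was high in the muscle-rich library of each group and at 1.94 CPM or less elsewhere. Its log2 fold change was 0.24 (SE 1.94, limma-voom adjusted p = 0.945). Cacng1, the muscle gamma subunit, was counted 5, 59 and 0 times in the controls and 0, 133 and 2 times in the labelled DKO libraries, and was too low to be tested. Cacnb1 was at 5.27, 12.7 and 6.54 CPM against 10.4, 20.2 and 14.6 CPM, again highest in the muscle-rich libraries.

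**Figure D4:**
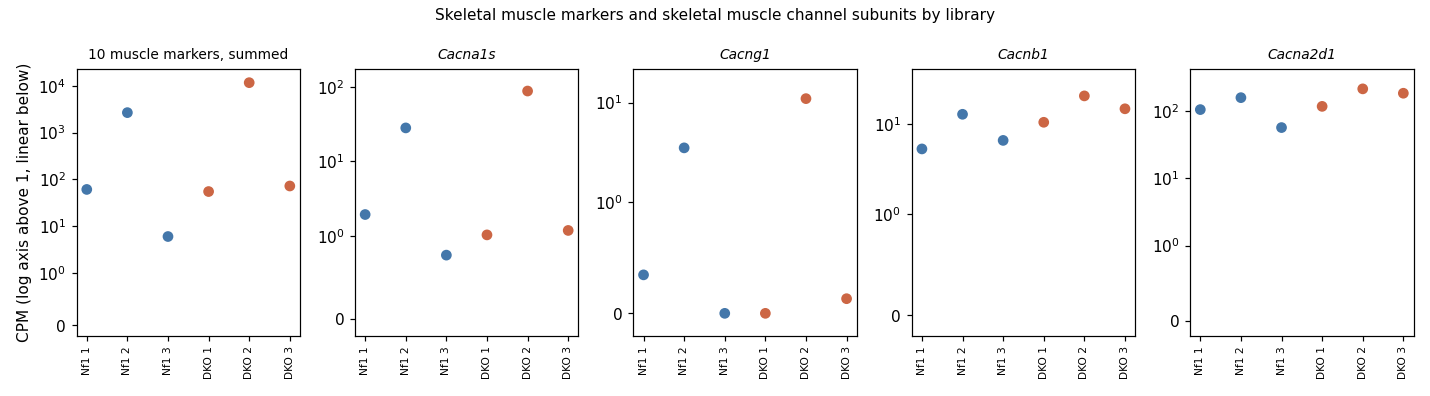
Summed level of 10 skeletal muscle markers and levels of Cacna1s, Cacng1, Cacnb1 and Cacna2d1 in CPM (vertical axes, logarithmic above 1 and linear below) in each library (horizontal axes; blue Nf1fl/fl;DhhCre, orange labelled double knockout). Replicate 2 of each group, with 2659 and 11593 CPM of muscle markers, was the highest of its group in all 5 panels.

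Genes that work with the channels were read from the same test. Of 10 genes of the presynaptic active zone, where channels are tethered near vesicles, 6 rose. Among them Pclo (log2 fold change 2.49, SE 0.34), Bsn (2.41, SE 0.38) and Erc2 (2.29, SE 0.47), which encode scaffold proteins, had the largest changes, and the count was also 6 without labelled DKO replicate 3. Without control replicate 1 neither Bsn nor Erc2 was called, and Erc2 was not called without control replicate 3. Of 11 channel regulators 9 were tested and 2 were called higher, Cabp1 (2.43, SE 0.63), a neuronal calcium-binding protein, and Stac (1.83, SE 0.38), an adaptor of L-type channels. Cabp1 reached the filter's 0.691 CPM in 2 of 3 controls and likewise entered the test only through the labelled DKO libraries. Cabp1 was called in 1 of the 6 fits that left out 1 library (limma-voom adjusted p = 0.0795 without labelled DKO replicate 3) and was not called by edgeR with all libraries (adjusted p = 0.0517). Stac was not called without control replicate 1 or 3.

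Thrombospondins, secreted matrix proteins that bind alpha2-delta subunits, moved the other way. Of the 4 tested, 3 fell. Thbs2 was at 637, 317 and 540 CPM in the controls and at 105, 56.9 and 77.4 CPM in the labelled DKO libraries (log2 fold change -2.62, SE 0.32, limma-voom adjusted p = 0.00805). Thbs4 had a log2 fold change of -2.05 (SE 0.21) and Thbs1 one of -1.50 (SE 0.38), while Thbs3 stood at -0.38 (limma-voom adjusted p = 0.240). Thbs1 was called in 2 of the 6 fits that left out 1 library (limma-voom adjusted p = 0.0821 without labelled DKO replicate 3) and was not called by edgeR with all libraries (adjusted p = 0.0564). Along with them 3 of 4 fibroblast markers and 4 of 5 macrophage markers fell. The summed fibroblast level was 6223 to 7124 CPM in the controls and 2275 to 3584 CPM in the labelled DKO libraries. The macrophage sum was 643 to 1376 CPM and 86.5 to 214 CPM. C1qa, among the 4, was below the filter's 0.691 CPM in labelled DKO replicate 2, at 0.247 CPM. It was thus tested only through the controls, and its call is no support for a fall. Without labelled DKO replicate 3 the counts were 2 thrombospondins, 2 fibroblast and 3 macrophage markers. Over all genes, 473 were called lower in that fit, in place of 839 with all libraries. No fibroblast marker was at 0, and the part of these cells in the thrombospondin result was not tested.

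Of 20 genes of calcium stores, pumps and exchangers 4 rose, or 3 without labelled DKO replicate 3. The plasma membrane pumps Atp2b2 (2.97, SE 0.47) and Atp2b3 (2.63, SE 0.43), which return calcium to the outside, and the ryanodine receptor Ryr3 (1.75, SE 0.45) changed most. Ryr3 was not called without that library (log2 fold change 1.42, limma-voom adjusted p = 0.0678), nor was it called without control replicate 1, control replicate 3 or labelled DKO replicate 2. Atp2b2 and Atp2b3 were not called without control replicate 1. Of 13 genes of calcium-dependent kinases, phosphatases and buffers 12 were tested and 3 were called higher, or 1 without labelled DKO replicate 3. Camk2a (2.78, SE 0.73), which encodes a synaptic kinase, and Ppp3ca (1.04, SE 0.20), which encodes the catalytic subunit of calcineurin, were among the 3. Neither passed both thresholds without labelled DKO replicate 3, where their log2 fold changes were 2.60 and 0.87. With all libraries Camk2a was not called by edgeR (adjusted p = 0.0877) or DESeq2 (adjusted p = 0.0541), and Ppp3ca fell short of 2-fold with library size only (0.959) and with sample quality weights (0.983).

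Sensory neuron markers were also higher in the labelled DKO libraries. Of 22 such markers 21 rose, with a median log2 fold change of 2.38, and their summed level was 1598 to 3033 CPM in the controls and 7271 to 16044 CPM in the labelled DKO libraries. None was at 0 in any group, and 19 were called without labelled DKO replicate 3, where the median was 2.005. Markers of non-peptidergic and of peptidergic nociceptors rose in 4 of 5 genes each, and those of low-threshold mechanoreceptors and proprioceptors in 4 of 6, or in 4, 1 and 3 without that library. Schwann cell markers rose in 5 of 9 genes, or 4 without it, with summed levels of 2423 to 2811 CPM in the controls and 4085 to 5124 CPM in the labelled DKO libraries. Satellite glia markers gave 1 called higher and 1 lower of 3, and 0 of 10 skeletal muscle, 6 smooth muscle and 3 endothelial markers were called by limma-voom, edgeR or DESeq2. At an unadjusted limma-voom p below 0.05 the counts were 0, 2 and 0. Without labelled DKO replicate 3, limma-voom called 1 smooth muscle and 1 endothelial marker higher. In bulk tissue, more cells of a type and more RNA per cell cannot be told apart, and the part of neuron content in the channel results was not tested.

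The level of each channel gene was therefore also given relative to the mean log2 CPM of the 22 neuron markers in the same library. On this scale the groups overlapped for 4 genes, among them the 3 that were called. Cacna1b was at 1.099, 0.46 and 0.54 in the controls and at 0.57, 0.31 and 0.66 in the labelled DKO libraries, a difference of -0.18 (exact two-sided permutation p = 0.6). Cacna2d2 differed by 0.70 (exact permutation p = 0.2), Cacna2d3 by 0.37 (exact permutation p = 0.3) and Cacna1i by 0.64 (exact permutation p = 0.7). The difference of Cacna1i was 0.24 with a prior count of 2 in place of 0.5, and -0.22 without control replicate 1. That of Cacna2d3 was 0.58 without control replicate 1 and 0.25 without control replicate 3.

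The other 6 genes were lower relative to the neuron markers in every labelled DKO library than in any control. Cacna1d showed the largest difference, with relative levels of -1.05, -2.87 and -0.94 in the controls and of -3.92, -4.17 and -4.35 in the labelled DKO libraries, a difference of -2.52. Cacna1h differed by -1.66, Cacna1e by -1.64, Cacna2d1 by -1.42, Cacna1c by -1.27 and Cacna1a by -1.204. For each of the 6 the exact permutation p was 0.1, or 0.167 adjusted over the 10 genes, and no smaller p is possible with 3 against 3 libraries. Of all genes tested 83.0% were likewise lower on this scale in every labelled DKO library, since the markers themselves rose, and a lower relative level was thus common to most genes. Without labelled DKO replicate 3 these 6 differences lay between -2.42 and -1.105, and those of the other 4 genes between -0.26 and 1.01.

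**Figure D5:**
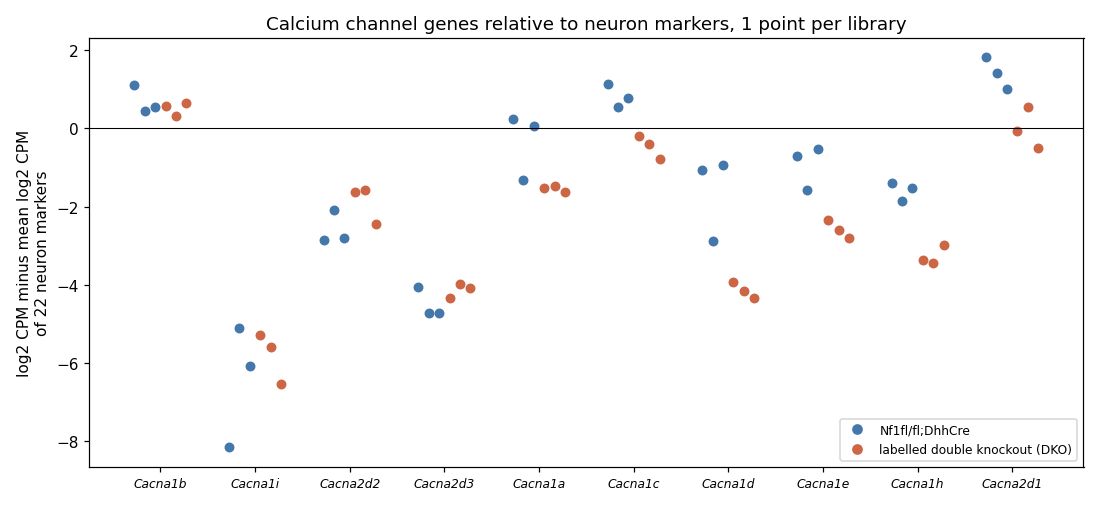
Level of each channel gene relative to neuron markers (vertical axis, log2 CPM minus the mean log2 CPM of 22 markers in the same library), 1 point per library, for Nf1fl/fl;DhhCre (blue) and labelled double knockout (orange). The groups overlap for Cacna1b, Cacna1i, Cacna2d2 and Cacna2d3 on the left and do not overlap for the other 6 genes.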

How the data were processed

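Per the labels and the study's methods, RNA was amplified, sequenced paired-end, aligned to mm10 with TopHat and counted per gene with featureCounts, and the authors deposited raw counts for each library. Gene annotation, strand setting and treatment of multiply mapped reads are not given in the sources used here. Counts were filtered with filterByExpr (minimum count 10, minimum total 15), TMM-scaled and tested with limma-voom (limma 3.58.1, edgeR 4.0.16, R 4.3.3) over 15652 genes and 6 libraries, 4 residual degrees of freedom, with Benjamini-Hochberg adjustment. Alternatives were edgeR, DESeq2 1.42.0, other scalings, filters and weights, and leaving out each library. Relative levels used log2 CPM with a prior count of 0.5. The scripts were tested on simulated data with less spread between libraries than these data have. Changes were set there only in well-counted genes, so the simulation does not show how low-count genes fare. Positions and exon lengths come from GENCODE M21 and promoters from RefSeq, both of the mm10 build. Intervals on shares were not given, since only the spread of 3 libraries was used, and p-values measure the spread between these mice. Libraries of 1 genotype differed beyond counting noise. The members and lists were chosen with earlier results of these data known. Channel genes, beta subunits and other pore-forming and alpha2-delta genes were named whatever their values, and up to 3 called genes per direction from each other list. Sample titles and column headers disagree on the mouse number within each genotype for 4 libraries, so the library of the separate sequencing run may be labelled DKO replicate 2 or 3. Some results of the partner lists are not reported here.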

Additional observations from a re-analysis of the deposited data

How the results depend on the processing

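Of the calls among the 10 channel genes, those of Cacna1b, Cacna2d2 and Cacna2d3 held under all 7 other settings that used all 6 libraries, where 3 or 4 channel genes were called and the number of genes called over the whole table was 2087 to 2907, and 2978 at unadjusted p. Leaving out 1 library at a time moved the number of genes called from 2096 to between 362 (without control replicate 1) and 2285 (without control replicate 2). The number of channel genes called then lay between 0 (without control replicate 1) and 5 (without control replicate 2 or labelled DKO replicate 1), and their median log2 fold change between 0.74 (without labelled DKO replicate 3) and 1.16 (without control replicate 2). The 5 without control replicate 2 included Cacna1i, as did the 4 with sample quality weights. Cacna1i was tested only through the labelled DKO libraries, so its calls are no support for a rise. At the 0 of limma-voom, 5 channel genes had an unadjusted p below 0.05 with more than 2-fold change. Cacna1i was among these 5 as well, and the share of all genes at this threshold is not given. On the same 5 libraries edgeR called 0 and DESeq2 4. Over all genes, limma-voom called 362, edgeR 508 and DESeq2 2516 on them. Without both muscle-rich libraries, an alternative chosen after seeing the data, 3 channel genes were called, Cacna1c among them in place of Cacna2d3. Directions turned in a few cases: Cacnb2 was at -0.020 with library size only, -0.18 with sample quality weights and -0.12 without control replicate 2 or labelled DKO replicate 3, in a range of -0.12 to 0.29 over the fits that left out 1 library. Cacna1s was at -0.21, -0.88 and -1.70 without control replicate 1, control replicate 3 and labelled DKO replicate 2, and at -0.10 without both muscle-rich libraries, where Cacna1f was at -0.082. Over the fits without 1 library Cacna1s ranged from -1.70 to 1.81. Relative to the neuron markers, Cacna1b was at 0.018 and Cacna1i at -0.22 without control replicate 1, in ranges of -0.30 to 0.018 and -0.22 to 1.31 over the fits that left out 1 library. Of the other called genes, Cacng2, Stac and Erc2 were not called without control replicate 1 or 3, Cacng7 also without labelled DKO replicate 2, and Bsn, Atp2b2 and Atp2b3 without control replicate 1. Thbs1, Camk2a and Ppp3ca were not called in 4 of the 6 fits that left out 1 library and Cabp1 in 5, while Pclo, Thbs2 and Thbs4 were called in all 6. With all libraries, edgeR did not call Cabp1, Thbs1 or Camk2a, DESeq2 did not call Camk2a, and Ppp3ca was under 2-fold with library size only and with sample quality weights. The cause of these changes was not tested. With the longest transcript as length, the share of Cacna2d3 differed by 5.03 percentage points in place of 3.43. The mean share of Cacna1b among the 7 pore-forming genes was then 32.4% in the controls and 52.8% in the labelled DKO libraries. With exonic length it was 40.7% and 61.8%. In control replicate 3 it was 26.8% with the longest transcript, beside 23.7% for Cacna1a. No paired analysis was possible because the replicate numbers follow the order of the samples and mark no shared litter or batch. With 4 residual degrees of freedom and 1 to 41 counts per library, Cacna1i is the member with the least precise value.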
